A study of Mus musculus with 6 samples.

Results

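The 10 complement genes described here were followed across macrophages sorted by their level of CX3CR1, the receptor of the chemokine fractalkine. They are C1qa, C1qb, C1qc, C4b, Cfb, Cfp, C3ar1, C5ar1, Vsig4 and Cd55, and they were chosen by name. They make up 10 of the 22180 genes measured through probe sets with exactly 1 gene symbol, and each had 1 such probe set. All 10 were among the 15529 genes bright enough to test. Expression was measured on Affymetrix arrays in dermal macrophages from digested ear skin of C57Bl/6 mice aged 2 weeks. All mice were Cx3cr1+/gfp, with the sequence of green fluorescent protein replacing Cx3cr1 on 1 chromosome, so that every group lacked that copy. The cells were sorted into CX3CR1low, CX3CR1int (intermediate) and CX3CR1high subsets, and the study compared these with each other. Each subset had 2 samples, each from 4 pooled mice, and the samples of a subset came from 2 independent litters. All values are RMA-normalised log2 signals, so that a difference of 1 is a doubling, and 2 arrays per subset limit the precision of every value.

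Complement is a system of blood and tissue proteins that mark microbes and dying cells for uptake. C1q starts the classical pathway, which cleaves C4 and C2. Factor B and properdin drive the alternative pathway, which amplifies the deposition of C3, and small cleavage fragments attract and activate leukocytes. Most circulating complement comes from the liver, but macrophages are a main source of C1q and make several other components in tissue. Regulators on cell membranes, among them CD55, take the convertases apart and protect the cells that carry them.

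Across the series, the arrays had median log2 signals of 4.84 to 4.94. Cx3cr1 itself was at 5.87 and 7.01 (CX3CR1low), 7.05 and 6.84 (CX3CR1int) and 10.55 and 9.51 (CX3CR1high), and the CX3CR1low and CX3CR1int samples overlapped. All 10 macrophage markers examined were above the dim level, 4.335, below which a gene was not tested, and their mean lay between 10.51 and 10.83 in every sample. Of these, 3 were higher and 7 lower in CX3CR1high than in CX3CR1low cells and none was called. Named as checks, Adgre1, a surface antigen used to identify macrophages, and Csf1r, the receptor of the macrophage growth factor, differed by -0.08 and -0.14, while the widest differences were those of Cd163 (-0.91, limma adjusted p = 0.0829, and 0.0305 with the replicate number in the fit) and Cd14 (0.45, adjusted p = 0.292). The female transcript Xist was at 7.39 to 7.97 in replicates 1 and at 10.99 to 11.39 in replicates 2, so that the replicates of each subset differed in sex composition. In these sorted samples, fewer cells of a type and less RNA per cell cannot be told apart.

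Promoter sequence was taken from RefSeq (build GRCm38.p6) for genes that stood on either side of the main pattern. Both CX3CR1high samples of Cd55 and Cfp lay below all others, though limma called Cfp only with the replicate number in the fit. The subset means of C1qb and C1qc lay close together. Of the 10 genes 7 matched an entry, and C1qa, C4b and Cfb did not. Each line holds the 250 bases before the annotated start, 5′ to 3′, and all 4 genes lie on the minus strand. Capitals mark matches, on either strand, to any of 8 short motifs that are spelled out after the sequences.
Cd55, chr1:130462745-130462994: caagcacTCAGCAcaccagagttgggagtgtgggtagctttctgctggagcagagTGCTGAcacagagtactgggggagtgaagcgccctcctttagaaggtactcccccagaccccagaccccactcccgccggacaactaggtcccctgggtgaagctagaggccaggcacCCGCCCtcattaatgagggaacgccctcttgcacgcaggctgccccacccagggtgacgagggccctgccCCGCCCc
Cfp, chrX:20931556-20931805: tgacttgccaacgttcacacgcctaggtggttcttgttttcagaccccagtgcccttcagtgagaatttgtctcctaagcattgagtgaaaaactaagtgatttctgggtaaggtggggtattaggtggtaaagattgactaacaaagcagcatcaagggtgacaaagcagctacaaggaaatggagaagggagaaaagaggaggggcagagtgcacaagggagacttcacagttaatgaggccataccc
C1qb, chr4:136886201-136886450: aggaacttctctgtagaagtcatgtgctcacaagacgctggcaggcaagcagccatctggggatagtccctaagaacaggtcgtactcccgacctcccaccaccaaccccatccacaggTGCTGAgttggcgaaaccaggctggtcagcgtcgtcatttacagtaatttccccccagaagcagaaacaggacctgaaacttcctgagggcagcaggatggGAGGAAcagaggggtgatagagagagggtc
C1qc, chr4:136892915-136893164: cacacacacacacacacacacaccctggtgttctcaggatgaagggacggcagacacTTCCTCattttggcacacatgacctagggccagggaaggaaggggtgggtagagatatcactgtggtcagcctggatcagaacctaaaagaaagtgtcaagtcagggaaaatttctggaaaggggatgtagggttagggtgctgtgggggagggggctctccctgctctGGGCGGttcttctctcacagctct

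Among the sequences shown, the C1qb window held a PU.1 core (GAGGAA, bound by a factor of myeloid cells) at -30 to -25 and a MAF core (TGCTGA) at -131 to -126, counted from the start. The C1qc window held a PU.1 core at -193 to -188 and a GC box (GGGCGG) at -24 to -19. Cd55 had GC boxes at -77 to -72 and -7 to -2 and MAF cores at -243 to -238 and -195 to -190. None of the 8 motifs was found in the Cfp window. Over all 32851 promoter windows of this length, 23.3% held a PU.1 core, 32.7% a GC box and 16.1% a MAF core.

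The other motifs searched had no match in the 4 windows printed. They were the TATA box (TATAAA, in 12.4% of all windows), the CCAAT box (33.8%) and the E box (CACGTG, 6.02%). The gamma-activated site was searched as TTC and GAA set apart by any 3 bases (7.02%), and the interferon-stimulated element as GAAA repeated after any 2 bases (2.98%). No motif overlapped another in these windows. Among the windows not printed, Vsig4, whose CX3CR1high samples were its lowest, held PU.1 cores at -155 to -150 and -53 to -48. C3ar1 held a TATA box, a GC box and a MAF core, and C5ar1 a CCAAT box and a MAF core. C3ar1 and C5ar1, whose levels lay close together in all subsets, held no PU.1 core. A match describes the letters and does not show that a factor binds there.

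The 10 genes divided into those whose CX3CR1high samples lay below all others and those whose means lay close together in all 3 subsets. C4b, a component of the classical pathway, and Cd55, a membrane regulator, fell in CX3CR1high cells against both other subsets. Cfb (factor B) and Cfp (properdin), of the alternative pathway, and the weakly expressed receptor gene Vsig4 were lower in both CX3CR1high samples than in every other sample. Limma called none of these without the replicate number in the fit. Both CX3CR1high samples lay below both CX3CR1low samples for 18.4% of all genes, and below both CX3CR1int samples for 18.5%. The C1q chains and the receptors of the fragments C3a and C5a differed by at most 0.48 in any comparison of subset means, but the single samples of C1qc spanned 1.25.

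**Figure D1:**
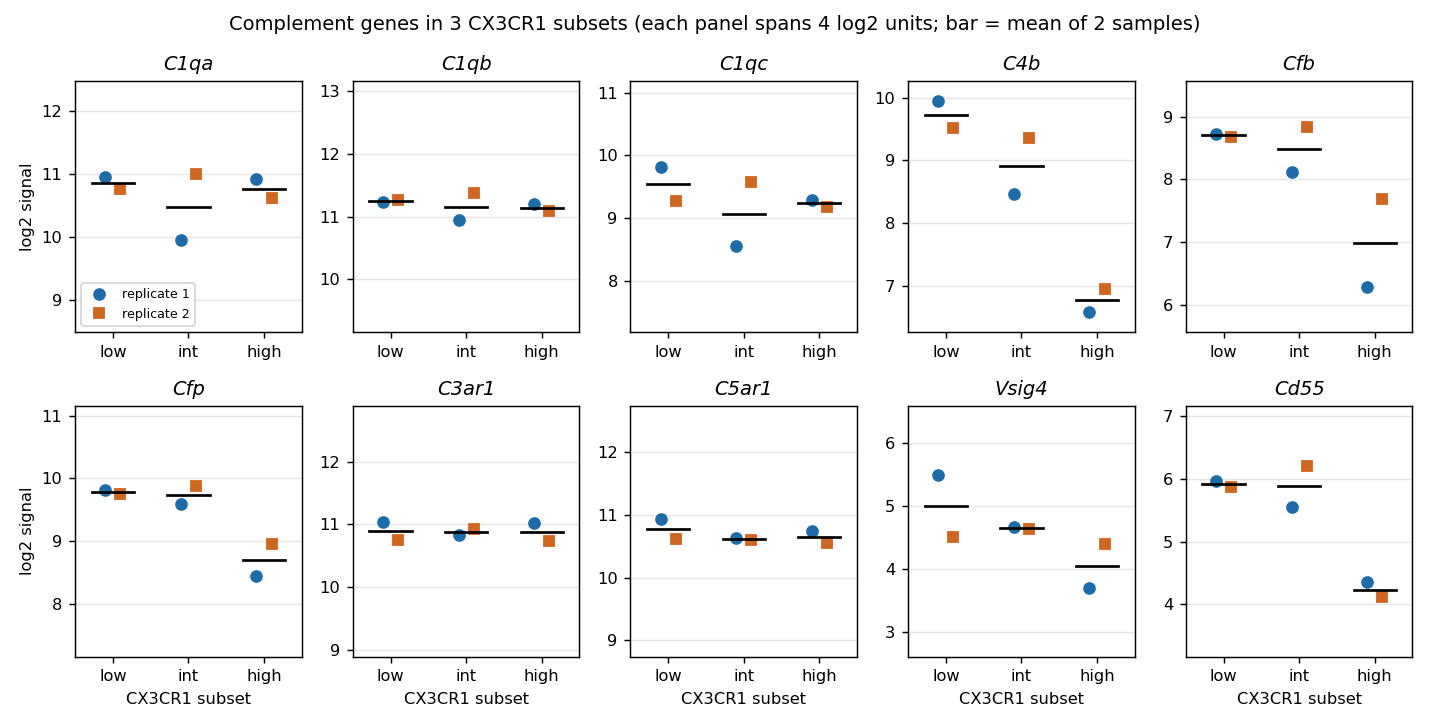
The log2 signal of each gene is plotted for every sample, with subsets on the x axis, replicates 1 (circles) and 2 (squares) and a bar at the mean of 2 samples. Every panel spans 4 log2 units, so that slopes can be set side by side. C4b stands at 6.59 and 6.95 in CX3CR1high samples and at 8.47 or above elsewhere, whereas C3ar1 stays between 10.74 and 11.04.

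C1qa, C1qb and C1qc encode the chains of C1q, the recognition molecule of the classical pathway. C1qa was at 10.95 and 10.77 (CX3CR1low), 9.96 and 11.01 (CX3CR1int) and 10.92 and 10.62 (CX3CR1high). C1qb was at 11.23 and 11.26, 10.95 and 11.37, and 11.20 and 11.09 in the same order. C1qc was at 9.81 and 9.28, 8.56 and 9.57, and 9.29 and 9.18. The CX3CR1int sample 1 was thus the lowest of the 6 samples for all 3 chains, and the CX3CR1int samples spanned those of the other subsets, save the CX3CR1low sample 1 of C1qc (9.81). CX3CR1int sample 1 was the lowest of the 6 for 14.6% of all genes tested. Across the 10 complement genes, sample 2 of CX3CR1int cells was above sample 1 for 8 (46.8% of all genes), and the samples lay at least 0.4 apart for 6 (19.3% of all genes), a distance chosen after the values were seen.

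No C1q chain differed between subsets by the test. Between CX3CR1high and CX3CR1low cells the differences were -0.09 for C1qa (95% interval -0.75 to 0.57), -0.10 for C1qb (-0.44 to 0.24) and -0.31 for C1qc (-1.01 to 0.39). The adjusted p from limma, with Benjamini-Hochberg adjustment over all genes, was 0.957, 0.901 and 0.823. A C1qc lower by 1 log2 unit in CX3CR1high cells therefore stays within the interval. The largest difference among the chains was that of C1qc between CX3CR1int and CX3CR1low cells (-0.48, interval -1.18 to 0.22), and it rested on the CX3CR1int sample 1. Without that sample it was 0.03.

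C1q genes lie side by side on chromosome 4, in the RefSeq order C1qb, C1qc and C1qa. The shape of their values over the samples was compared by a root mean square distance of mean-centred log2 values, in which 0 means the same shape. C1qa and C1qc lay 0.146 apart, C1qa and C1qb 0.243 and C1qb and C1qc 0.285. The closest pair among the 10 genes was C3ar1 with C5ar1 (0.075), and the most distant were C4b with C1qa and C4b with C3ar1, both at 1.277. Epha8, the neighbour of C1qa, differed by -0.03 between CX3CR1high and CX3CR1low cells.

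C4b encodes C4, the component whose cleavage forms the convertase of the classical and lectin pathways. Its log2 signal was 9.94 and 9.51 (CX3CR1low), 8.47 and 9.35 (CX3CR1int) and 6.59 and 6.95 (CX3CR1high). Both CX3CR1high samples lay below all others, and both CX3CR1int samples below both CX3CR1low samples. The fall from CX3CR1low to CX3CR1high cells was 7.75-fold (log2 difference -2.96 ± 0.29, SE, n = 2 per subset, limma adjusted p = 0.0103). From CX3CR1int to CX3CR1high cells it was 4.41-fold (-2.14 ± 0.29, SE, adjusted p = 0.0474). Among 15529 genes, C4b had the fourth-lowest difference in the comparison with CX3CR1low and the seventh-lowest in that with CX3CR1int.

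Between CX3CR1int and CX3CR1low cells C4b differed by -0.81 (interval -1.48 to -0.15, adjusted p = 0.987), and the call was not made. Within replicate number 1 that difference was -1.47 and within number 2 it was -0.16, and it ran from -1.25 to -0.38 when 1 sample was left out. The differences of CX3CR1high from CX3CR1low cells were -3.35 and -2.56 within the replicate numbers, and those from CX3CR1int cells -1.88 and -2.40. Both numbers thus gave a lower C4b in CX3CR1high cells. C4a, a near-identical copy of C4b, was below the dim level in all samples (3.16 to 3.67), and whether the C4b probe set also takes up its transcript was not tested.

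The call of C4b against CX3CR1low cells held in 14 of 17 alternative settings and that against CX3CR1int cells in 4 of 17. It ended against CX3CR1low cells without the CX3CR1low sample 1 (-2.74, adjusted p = 0.06) and without the CX3CR1high sample 1 (-2.78, adjusted p = 0.154), as it did with the marker covariate described further on. Against CX3CR1int cells it ended without any 1 of the 6 samples (adjusted p from 0.0655 to 0.466). Across the alternatives the adjusted p ran from 0.00484 to 0.34 against CX3CR1low and from 0.0254 to 0.466 against CX3CR1int cells, while the differences stayed between -3.17 and -2.74 and between -2.58 and -1.70.

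Cfb encodes factor B, the serine protease of the alternative pathway convertase. It was at 8.72 and 8.68 (CX3CR1low), 8.11 and 8.84 (CX3CR1int) and 6.29 and 7.69 (CX3CR1high). The CX3CR1high samples were below all others but lay 1.4 apart. Cfb differed by -1.71 ± 0.41 (SE, n = 2 per subset, limma adjusted p = 0.181) between CX3CR1high and CX3CR1low cells and by -1.49 (adjusted p = 0.377) between CX3CR1high and CX3CR1int cells. When the replicate number entered the fit as a factor (the replicate block), the former was called (adjusted p = 0.0367) and the latter was not (0.103). Within the replicate numbers the difference from CX3CR1low cells was -2.43 and -0.99. It was -1.01 without the CX3CR1high sample 1 and -2.41 without the CX3CR1high sample 2, and the difference from CX3CR1int cells was then -0.79 and -2.19.

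Cfp encodes properdin, which stabilises the alternative pathway convertase and is made largely by myeloid cells. Its log2 signal was 9.82 and 9.76 (CX3CR1low), 9.59 and 9.88 (CX3CR1int) and 8.44 and 8.96 (CX3CR1high). CX3CR1low and CX3CR1int samples overlapped, and both CX3CR1high samples were lower. The difference from CX3CR1low cells was -1.09 ± 0.20 (SE, limma adjusted p = 0.0768) and that from CX3CR1int cells -1.03 (adjusted p = 0.147). With the replicate block the adjusted p was 0.029 and 0.0616, so that the comparison with CX3CR1low cells alone was called. Within the replicate numbers the difference from CX3CR1low cells was -1.38 and -0.8 respectively. Cfp lies on the X chromosome, and the replicates differed in sex composition. Between replicates 2 and 1 Cfp differed by -0.06, 0.29 and 0.52 in CX3CR1low, CX3CR1int and CX3CR1high cells.

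Cd55 encodes decay-accelerating factor, a membrane protein that breaks up C3 and C5 convertases. It was at 5.97 and 5.87 (CX3CR1low), 5.55 and 6.21 (CX3CR1int) and 4.35 and 4.12 (CX3CR1high). The CX3CR1low samples lay between those of CX3CR1int cells, and both CX3CR1high samples stood below. The fall to CX3CR1high cells was at least 3-fold from CX3CR1low (log2 difference -1.69 ± 0.23, SE, n = 2 per subset, limma adjusted p = 0.0317) and at least 2.92-fold from CX3CR1int cells (-1.65 ± 0.23, SE, adjusted p = 0.0474). These folds are lower bounds for the dim signal, since the CX3CR1high mean, 4.24, was below the dim level, and they do not allow for the spread between samples. The differences within the replicate numbers were -1.62 and -1.75 from CX3CR1low and -1.20 and -2.09 from CX3CR1int cells.

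The call of Cd55 was close to the threshold. It held in 10 of 17 alternatives against CX3CR1low cells (adjusted p from 0.018 to 0.652) and in 4 of 17 against CX3CR1int cells (0.034 to 0.309), where leaving out any 1 of the 6 samples ended it. Against CX3CR1low cells it ended when any of the 4 samples compared was left out (adjusted p = 0.118 and 0.107 without CX3CR1low sample 1 or 2, and 0.196 and 0.184 without CX3CR1high sample 1 or 2), with no filter on dim genes (0.0503), with every probe set on its own (0.077) and with the marker covariate (0.652). Cd55b, its paralog and neighbour on chromosome 1, was below the dim level in all samples (2.73 to 3.51).

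Receptors of the anaphylatoxins had similar levels in the 3 subsets. C3ar1, the receptor of C3a, was at 11.04 and 10.75 (CX3CR1low), 10.83 and 10.92 (CX3CR1int) and 11.02 and 10.74 (CX3CR1high). C5ar1, the receptor of the chemoattractant C5a, was at 10.93 and 10.62, 10.64 and 10.60, and 10.74 and 10.55. The samples of the 3 subsets overlapped for both genes. Between CX3CR1high and CX3CR1low cells C3ar1 differed by -0.02 (interval -0.36 to 0.33) and C5ar1 by -0.13 (-0.47 to 0.21), with limma adjusted p of 0.988 and 0.853. The intervals leave room for changes under 0.5 on the log2 scale, less than the fall of C4b or Cd55.

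Vsig4 encodes CRIg, a receptor of resident macrophages that binds C3b and iC3b on particles. Its signal was weak, 5.50 and 4.51 (CX3CR1low), 4.67 and 4.63 (CX3CR1int) and 3.70 and 4.40 (CX3CR1high). The CX3CR1high samples were the lowest, and the CX3CR1high mean of 4.05 was below the dim level. Vsig4 differed by -0.96 between CX3CR1high and CX3CR1low cells (interval -1.70 to -0.21, limma adjusted p = 0.374, and 0.302 with the replicate block). That difference was -1.80 within replicate number 1 and -0.11 within number 2. Without the CX3CR1low sample 1 it was -0.46, and without the CX3CR1high sample 1 it was -0.61. Like Cfp, Vsig4 is X-linked.

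**Figure D2:**
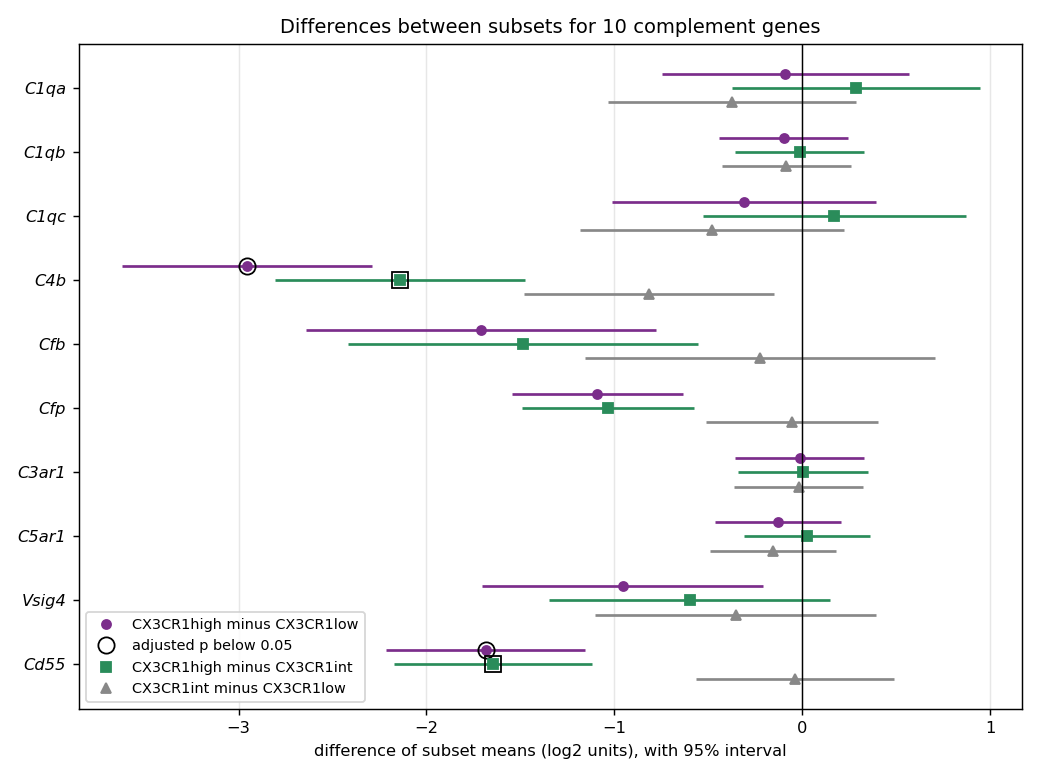
Differences of subset means in log2 units (x axis) are shown for each gene with 95% intervals from the limma fit, for the 3 comparisons by colour and shape, and black outlines mark an adjusted p below 0.05. C4b and Cd55 carry outlines in both comparisons with CX3CR1high cells, and no gene does between CX3CR1int and CX3CR1low cells.

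As a group, 2 of the 10 genes were called lower and none higher in CX3CR1high against CX3CR1low cells, against a background of 0.187% of all genes called lower and 0.399% in either direction. With the replicate block 4 of 10 were called, all lower (background 0.502% lower and 0.992% in either direction). The samples of both subsets did not overlap for 6 of 10 genes, all lower (background 18.4% lower and 19.8% higher): C1qb, C4b, Cfb, Cfp, Vsig4 and Cd55. The median difference of the 10 genes was -0.63, against 0.01 over all genes, and it was -0.29 without the CX3CR1low sample 1. Since the genes were listed with earlier results of these data known, these counts describe the list and do not test it.

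Against CX3CR1int cells the same genes, C4b and Cd55, were called lower in CX3CR1high cells (2 of 10, background 0.0644% lower, 0.0773% higher and 0.142% in either direction). The replicate block called those 2 as well (background 0.161% lower, 0.142% higher and 0.303% in either direction). Samples did not overlap for 5 genes, all lower (background 18.5% lower and 18.3% higher), and the median was -0.31, against 0 over all genes, and -0.19 without the CX3CR1high sample 1. Both comparisons contain the CX3CR1high samples, so that they are not independent. Between CX3CR1int and CX3CR1low cells limma called 0 of 10 genes, and 1 (C4b, unadjusted p = 0.0219) had an unadjusted p below 0.05, a threshold that 4.89% of all genes passed. The background of calls there was 0.00644%. C4b was also the only gene of the 10 whose samples did not overlap in that comparison (background 14.8%). A test of any difference among the 3 subsets, limma's moderated F test, called C4b (adjusted p = 0.0207) and Cd55 (0.043), against a background of 0.187%. With the replicate block it called the same 2 (0.0101 and 0.027, background 0.509%).

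**Figure D3:**
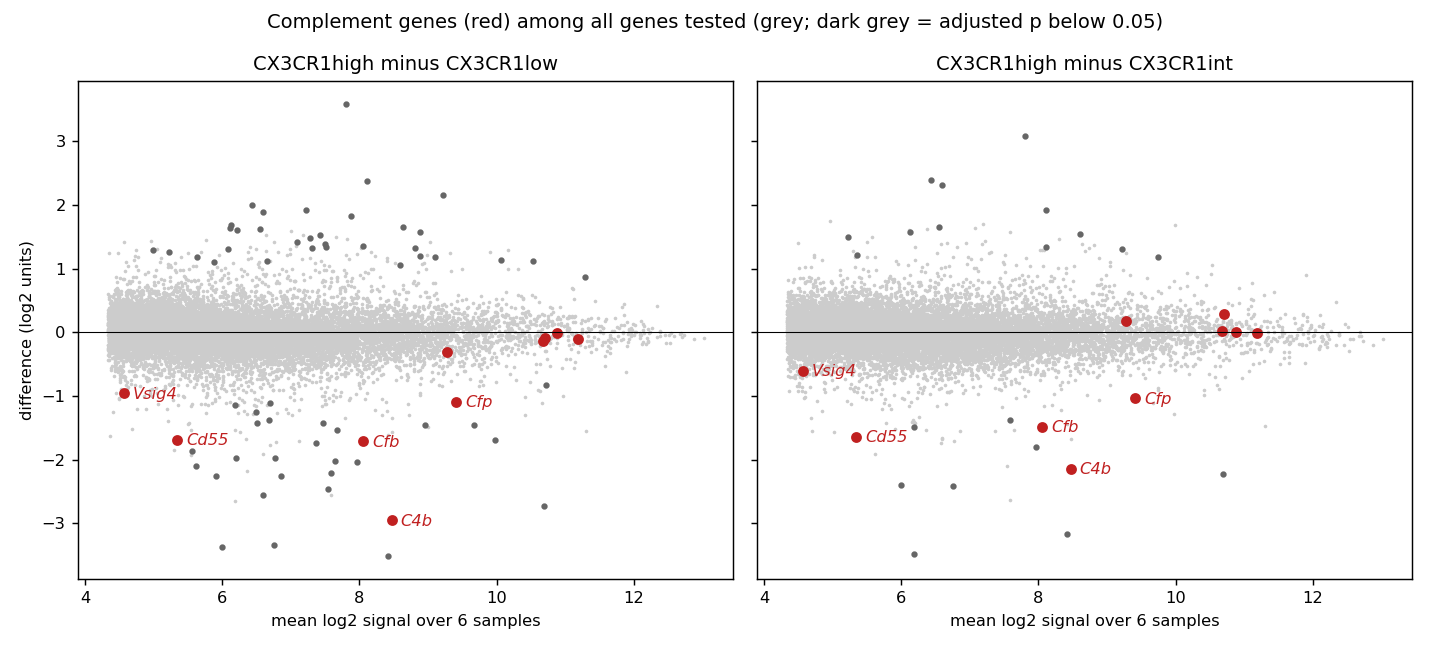
Each point is a gene tested, with its mean log2 signal over 6 samples (x axis) and its difference in log2 units (y axis) between CX3CR1high and CX3CR1low cells (left) or CX3CR1int cells (right). The 10 complement genes are red, and dark grey points passed an adjusted p below 0.05. C4b, Cfb, Cfp, Cd55 and Vsig4 lie below the bulk of genes of their signal, and the other 5 lie within it.

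Other genes of the complement system were read from a list of 51, of which 46 were measured and 25 were bright enough to test. C3 and Cfd were among the genes not analysed here, as was Masp2, which lay on a probe set with several symbols. Limma called none of the 25 in any comparison, while some passed an unadjusted p of 0.05. These were 8 in CX3CR1high against CX3CR1low cells (background 9.65%), 6 against CX3CR1int cells (7.89%) and 2 between the other pair of subsets (4.89%). In CX3CR1high against CX3CR1low cells 13 were higher and 12 lower, with a median of 0.04. The replicate block called 1, Cd93, higher in CX3CR1high than in CX3CR1low cells (background 0.489%).

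Cd93, a membrane glycoprotein once described as a C1q receptor, had its highest values in CX3CR1high cells. It was at 7.0 and 6.90 (CX3CR1low), 8.04 and 7.17 (CX3CR1int) and 8.46 and 8.42 (CX3CR1high), and the 3 subsets did not overlap. Its difference between CX3CR1high and CX3CR1low cells was 1.49 ± 0.27 (SE, limma adjusted p = 0.0678, and 0.026 with the replicate block). Itgax, the alpha chain of complement receptor 4, was at 4.43 and 4.58, 4.97 and 4.46, and 5.42 and 5.41, higher in both CX3CR1high samples than in all others (0.91, adjusted p = 0.149). Lrp1, a scavenger receptor that takes up C1q-tagged material, was likewise highest in both CX3CR1high samples (9.43 and 9.50, difference 0.58, adjusted p = 0.259). Both CX3CR1high samples lay above both CX3CR1low samples for 19.8% of all genes, and above both CX3CR1int samples for 18.3%. Itgax and Lrp1 were named for the size of their differences. The wider list held 8 tested receptor genes, Cd93, Itgax and Lrp1 included, of which 4 were higher and 4 lower in CX3CR1high than in CX3CR1low cells. Cd93 was called in 4 of 17 alternatives.

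Among the further components tested in CX3CR1high against CX3CR1low cells, 2 were higher and 4 lower for initiation, 3 higher and 1 lower for the terminal pathway, and 1 higher and 2 lower among fluid regulators. None was called, and those with the largest differences were lower. C2, which forms the classical convertase with C4, was at 7.02 and 6.70 (CX3CR1low), 5.88 and 7.35 (CX3CR1int) and 4.48 and 6.10 (CX3CR1high) (-1.57 between CX3CR1high and CX3CR1low, limma adjusted p = 0.388). Serping1, the C1 inhibitor, was at 6.23 and 6.76, 5.82 and 5.96, and 5.77 and 5.20 (-1.01, adjusted p = 0.193). C6, of the membrane attack complex, differed by -0.91 (adjusted p = 0.277) and Fcna, ficolin A of the lectin pathway, by -0.54 (adjusted p = 0.488). Leaving out 1 sample moved C2 to between -2.38 (without the CX3CR1high sample 2) and -0.76 (without the CX3CR1high sample 1). C6 was at -0.48 without the CX3CR1low sample 2 and Fcna at -0.29 without the CX3CR1low sample 1. With the marker covariate C6 turned to 0.34 and Serping1 came to -0.28. For each of these 4 genes, named for the size of their differences, both CX3CR1high samples lay below both CX3CR1low samples (18.4% of all genes), but the C2 samples of CX3CR1high and CX3CR1int cells overlapped.

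The position of the genes was set beside their values. On chromosome 17 C4b, Cfb and C2 lie in the class III region of the major histocompatibility complex, and RefSeq places 5 protein-coding genes between C4b and Cfb, besides C4a, which it lists there as a pseudogene, with C2 next to Cfb. Of those 5, the 4 tested had overlapping samples: Stk19, Dxo, Skiv2l and Nelfe differed by -0.08, 0.17, 0.03 and 0.33 between CX3CR1high and CX3CR1low cells, and Cyp21a1 was below the dim level. Tnxb, on the other side of C4b, differed by -0.41 (limma adjusted p = 0.581). Of the 11 genes from Tnxb to Ehmt2, 10 were tested, and the CX3CR1high samples lay below the CX3CR1low samples for 4 (18.4% of all genes): Tnxb, C4b, Cfb and C2. These neighbours were chosen after the values were seen. Timp1, an inhibitor of matrix proteases next to Cfp on the X chromosome, differed by -1.22 (adjusted p = 0.113, and 0.0818 with the block) and Elk1, on its other side, by -0.04.

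**Figure D4:**
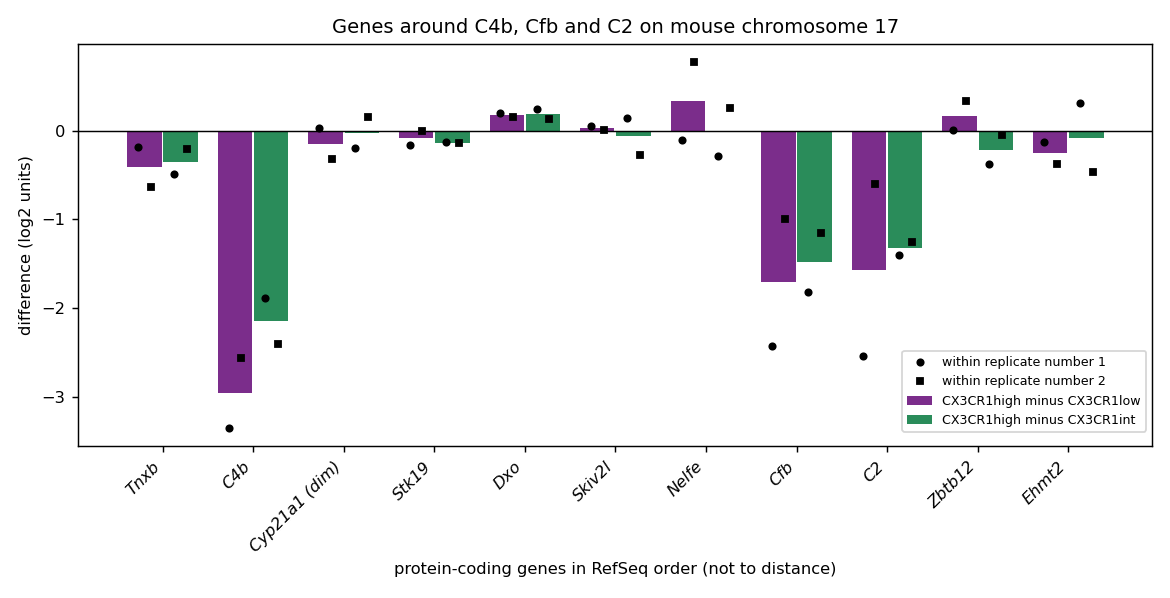
Bars give the difference in log2 units (y axis) between CX3CR1high and CX3CR1low cells (purple) or CX3CR1int cells (green) for 11 neighbouring protein-coding genes in RefSeq order (x axis, not to distance), and black symbols give the difference within replicate number 1 (circles) or 2 (squares). C4b, Cfb and C2 lie below -1 in both comparisons, and the protein-coding genes between C4b and Cfb lie between -0.15 and 0.33.

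Genes with the most similar course over the 6 samples were found by the same root mean square distance among all genes tested. Closest to C4b were Retnla (0.236), the gene of a secreted resistin-like protein, Cd209g (0.253), a lectin gene, Enpep (0.287), an aminopeptidase gene, Cpa3 (0.297), a mast cell protease gene, and Ms4a8a (0.355). Retnla was at 11.71 and 11.82 (CX3CR1low), 10.92 and 11.60 (CX3CR1int) and 8.68 and 9.40 (CX3CR1high). Cfb was closest to the chemokine gene Ccl8 (0.081), which was at 11.85 and 11.86, 11.38 and 12.16, and 9.54 and 11.06. It was followed by 9930111J21Rik2 (0.153), A4galt (0.203), Gstp1 (0.239) and C2 (0.248). All 3 of Cfb, Ccl8 and C2 were lowest in the CX3CR1high sample 1, which follows largely from choosing Ccl8 and C2 by their likeness to Cfb.

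Cfp lay closest to Cd163 (0.107), a haemoglobin scavenger receptor gene of resident macrophages, followed by Bace1 (0.109), Xdh (0.109), Ifitm3 (0.137) and Sema4b (0.139). Cd163 was at 10.94 and 10.94, 10.79 and 10.92, and 9.79 and 10.28. For Cd55, added to this comparison after its values were seen, the closest were Cd209b (0.244), Gask1b (0.259), Clec10a (0.267), Pros1 (0.286) and Fgfr1 (0.286). Likeness over 6 samples is a description, and samples of the same replicate number may share a litter.

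Genes that mark keratinocytes, fibroblasts and mast cells had lower values in CX3CR1high cells too. Averaged over 12 fibroblast genes, the log2 signal was 7.12 and 7.72 (CX3CR1low), 6.82 and 6.95 (CX3CR1int) and 6.54 and 6.62 (CX3CR1high), and that of 11 keratinocyte markers was 6.76 and 7.08, 6.33 and 6.55, and 6.36 and 6.34. The mean of 7 mast cell markers was 5.68 and 5.34, 5.14 and 5.07, and 4.30 and 4.23. All 3 means were thus highest in both CX3CR1low samples, as C4b was, and the keratinocyte mean overlapped between CX3CR1int and CX3CR1high samples. Cfb, Cfp and Cd55 overlapped between CX3CR1low and CX3CR1int samples. In CX3CR1high against CX3CR1low cells 10 of 11 keratinocyte, 10 of 12 fibroblast and all 5 tested mast cell markers had lower values. By limma 1 of 11 keratinocyte, 0 of 12 fibroblast and 3 of 5 tested mast cell markers were called there, all lower (background 0.187% lower). Of the fibroblast markers 9 had an unadjusted p below 0.05 (background 9.65%). With the replicate block 6 fibroblast markers were called lower (background 0.502% lower). None of the keratinocyte or fibroblast markers lay below the dim level on average, whereas the mast cell markers Fcer1a and Ms4a2 did.

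Other lists differed between the subsets as well. The mean of 6 Langerhans and dendritic cell markers was 5.47 and 5.48, 5.62 and 5.72, and 5.88 and 5.88, highest in CX3CR1high samples. Of the 6 markers 4 were higher and 2 lower in CX3CR1high than in CX3CR1low cells. Ccr7 differed there by 1.31 (limma adjusted p = 0.051, and 0.0239 with the block). Its CX3CR1high and CX3CR1int samples overlapped (difference 0.225, adjusted p = 0.854). Cd207 was higher in both CX3CR1high samples than in all others, by 1.22 against CX3CR1low (limma adjusted p = 0.181) and 1.395 against CX3CR1int cells (0.19). Such a place above both samples was held by 19.8% and 18.3% of all genes. Against CX3CR1int cells 3 of the 6 markers were higher and 2 lower. The monocyte marker Ly6c2 was at 3.36 and 4.92 in CX3CR1high samples, with a mean below the dim level, so that the size of its fall is uncertain. Between CX3CR1high and CX3CR1int cells it differed by -3.485 (interval -4.515 to -2.455, limma adjusted p = 0.0421). The other tested monocyte markers, Ccr2 and Plac8, differed there by 0.57 and -0.925. Against CX3CR1low cells 2 monocyte markers were higher, Ccr2 (1.235) and Plac8 (0.165), and 1 was lower, Ly6c2 (-2.655). Cdh5, an endothelial gene, differed by -1.27 from CX3CR1low cells (adjusted p = 0.177). The other tested endothelial markers, Pecam1, Cldn5 and Egfl7, differed by -0.05, -0.195 and -0.21. Ccr7, Cd207, Ly6c2 and Cdh5 were chosen after their values were seen, and the part of these cell types in the complement result was not tested.

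Named by rule for their size, Krt10 differed by -1.46 and Dsg1a by -1.06 among keratinocyte genes, Dpt by -1.73 and Col6a1 by -1.29 among fibroblast genes, and Mcpt4 by -2.25 among mast cell genes. Cpa3 fell at least 8.60-fold, since its CX3CR1high mean (4.07) lay below the dim level. Sfn (0.26) among keratinocyte genes and Pdgfra (0.28) and Col5a1 (0.06) among fibroblast genes had higher values in CX3CR1high cells. With the mean of keratinocyte and fibroblast markers as a covariate, the difference between CX3CR1high and CX3CR1low cells was -3.06 ± 0.69 for C4b (SE, limma adjusted p = 0.34), -1.52 ± 0.54 for Cd55 (adjusted p = 0.652), -1.27 for Cfb and -0.98 for Cfp. Vsig4 moved from -0.96 to -2.24, C5ar1 from -0.13 to -0.58 and C3ar1 from -0.02 to -0.39, while C1qa and C1qb turned to 0.16 and 0.14 and C1qc came to -0.53. The errors of C4b and Cd55 had been 0.29 and 0.23 without the covariate, so that changes within the wider errors tell little. With the covariate no gene of all those tested was called. That covariate is fitted from differences between replicates. These were widest in CX3CR1low samples (fibroblast mean 7.12 and 7.72, keratinocyte mean 6.76 and 7.08). No fit held both the covariate and the replicate number, so that their effects were not separated. The part of mast cell RNA in the result was not tested.

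**Figure D5:**
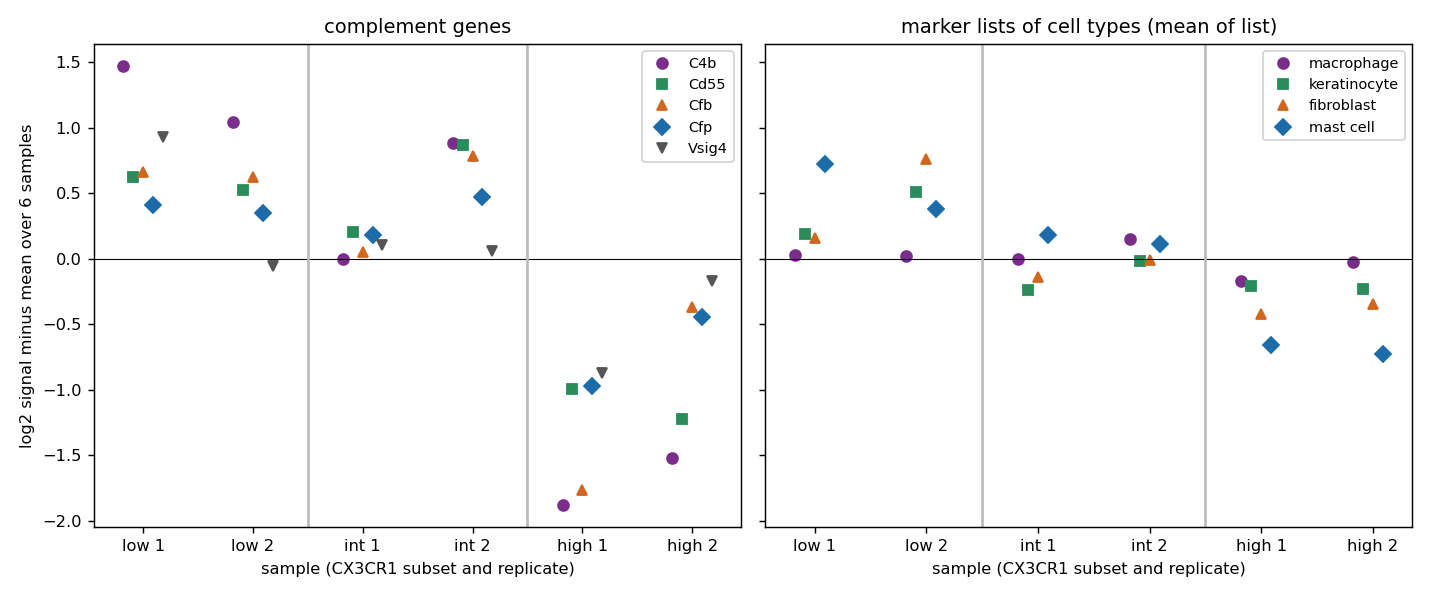
The log2 signal of 5 complement genes (left) and the mean of 4 marker lists (right) are plotted for each sample (x axis) after subtracting the mean over 6 samples (y axis, log2 units). The 5 complement genes and the mast cell, fibroblast and macrophage means stand lowest in both CX3CR1high samples, and the macrophage mean spans 10.51 to 10.83 before centring.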

How the data were processed

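Macrophages of 3 CX3CR1 subsets were measured on 6 arrays, 2 per subset. Per the submitters' processing notes, the authors normalised the arrays by RMA with Expression Console 1.4 and deposited log2 signals. Per the labels' protocols, RNA was amplified and biotin-labelled before hybridisation, so that the values describe amplified RNA. The genome build is not given in the sources used here, and single probe intensities were not used.

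Of 34390 probe sets, 23521 carried 1 gene symbol, 1814 several and 9055 none. The brightest probe set stood for a gene, and genes whose mean signal lay under 4.335, the 30th percentile, were left out, which left 15529. Differences were tested with limma 3.58.1 in R 4.3.3 as a mean per subset over all 6 samples, with an intensity trend in the variance prior, two-sided tests and p-values adjusted over all tested genes by Benjamini and Hochberg's method. An adjusted p below 0.05 counted as a call. The fit had 3 residual degrees of freedom, 2 with the replicate block, and 5.77 from the prior, and it was tested on simulated data. Deviations of the same replicate number correlated at 0.146, 0.136 and 0.178 between subsets. Without genes of the X and Y chromosomes the correlations were 0.124, 0.111 and 0.157. The number may therefore pair samples, but the main fit left it out, and the block is given where it changes a call. A difference shared by samples of the same number, such as sex composition, thus counted as error in the main fit. The labels do not state that number marks the litter, and p-values measure the spread between these pooled samples.

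The 10 genes, the wider list and the markers were chosen with earlier results of these data known. Named were the 10 genes, other complement genes called with or without the block, the 6 others of the largest difference between CX3CR1high and CX3CR1low cells, the 2 most different markers of keratinocytes, fibroblasts and mast cells, the check genes and the 5 genes most like C4b, Cfb and Cfp. Alternatives changed the filter, the probe sets, the scaling, the prior, the samples in the fit, a marker covariate and each sample in turn. Results that need no gene test carry no p.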

Additional observations from a re-analysis of the deposited data

How the results depend on the processing

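The direction of C4b, Cfb, Cfp, Vsig4 and Cd55 in CX3CR1high against either other subset was the same in every alternative that gave a value. This was largely fixed beforehand. Both CX3CR1high samples lay below all others for these genes, so that leaving out 1 sample could not turn the sign. The filter, the probe sets, the prior, the block and the use of only the compared samples left their differences unchanged. Only the scaling and the covariate could have turned the direction. For the 17 named complement genes and the group medians, 799 values under alternatives kept direction and side of the threshold, 36 lost a call, 6 gained one, 44 turned the sign of an uncalled difference or moved a median, and none reversed a call. Many of these settings change only the error or the adjustment, so that the tally does not measure how stable the differences are. Vsig4, Itgax and C6 gave no value under the stricter filter, which left them out. In CX3CR1high against CX3CR1low cells, 62 genes were called. That number was 154 with the replicate block, 26 with no filter on dim genes, 18 with every probe set on its own, 40 with arrays centred on their median, 39 with only the compared samples, 0 with the marker covariate and 0 to 39 without 1 sample. Of the 10 complement genes 2 were called there, 4 with the block, 1 with no filter or with every probe set, 0 with the covariate and 0 to 2 without 1 sample. The wider list had 0 calls there, 1 (Cd93) with the block or with only the compared samples, and 0 to 1 without 1 sample. In CX3CR1high against CX3CR1int cells 22 genes were called: 47 with the block, 0 with no filter or with every probe set, 14 with centred arrays or only the compared samples, 8 with quantile normalisation, 4 without the intensity trend and 0 to 17 without 1 sample. The 2 complement calls there became 0 in each of these save the block, and also with the covariate and without any 1 sample. Between CX3CR1int and CX3CR1low cells the single call (1 gene) was 0 with the block, no filter, every probe set, quantile normalisation, no trend, the covariate, only the compared samples or without any 1 sample. The F test called 29 genes: 79 with the block, 14 with no filter, 0 with every probe set or the covariate and 0 to 17 without 1 sample. Its 2 complement calls became 1 with no filter, 0 with every probe set or the covariate and 0 to 1 without 1 sample. Fewer samples or more tests enter several of these settings, and the cause was not tested in the others. Where a sample was left out, the lone sample of its subset was assumed to vary like the others. The split of higher and lower calls was 33 and 29, 17 and 23 with centred arrays and 34 and 27 with quantile normalisation for CX3CR1high against CX3CR1low cells. For CX3CR1high against CX3CR1int cells it was 12 and 10, 9 and 5 with centred arrays and 4 and 4 with quantile normalisation. The replicate block changed no other call of the 10 genes than those of Cfb and Cfp against CX3CR1low cells.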
